A study of Mus musculus with 2 samples.

Results

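The canonical WNT pathway reads an extracellular signal with a pair of membrane proteins, a frizzled receptor and the co-receptor LRP5 or LRP6, and passes it to β-catenin. In the absence of a WNT ligand a destruction complex marks β-catenin for degradation. With ligand bound, β-catenin accumulates, enters the nucleus and joins DNA-bound factors of the TCF/LEF family, of which TCF7L1 acts mainly as a repressor and LEF1 mainly as an activator. In the hair follicle (HF) this signal is known to act on the melanocyte lineage as melanocyte stem cells (McSCs) begin to make pigment. The genes described here are 10 of these receivers and nuclear effectors: the frizzled receptors *Fzd1*, *Fzd3*, *Fzd6* and *Fzd7*, the co-receptors *Lrp5* and *Lrp6*, β-catenin (*Ctnnb1*), and the TCF/LEF factors *Lef1*, *Tcf7l1* and *Tcf7l2*. They were chosen by name from the 32285 genes of the matrices, and all 10 were present in both.

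GFP+ melanocytes were sorted from dorsal skin of mice that carried *Dct-rtTA* and *tetO-H2B-GFP* and were fed doxycycline, so that the *Dct* promoter set which cells took up the nuclear label. They were profiled as single cells by 3′ RNA sequencing with unique molecular identifiers (UMIs, 1 per captured transcript). The early anagen library (activated McSCs) came from mice depilated at 8 weeks of age and killed 4 days after depilation, when HFs were at anagen II. The bulb library (differentiated melanocytes) came from the dissected bulbs of anagen VI HFs at 5 weeks of age. Cells of 4 mice were combined in each library, the mice were of mixed backgrounds, and no label separates the animals. Early anagen cells were loaded with version 3 of the kit chemistry and bulb cells with version 2, so that stage, age, depilation, tissue dissection, chemistry and depth all changed together between the 2 libraries and cannot be told apart. With 1 library per condition there was no test. Values are UMIs summed over cells, as CPM, the UMIs of a gene per 1000000 UMIs of all genes, and every interval is an exact 95% interval that covers counting error only.

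Cells were kept with at least 1 *Dct* UMI, fewer than 3 UMIs of *Krt10* and *Krt14* together, under 5% mitochondrial UMIs, and more than 10000 UMIs in early anagen or 5000 in the bulb. This left 2785 of 3464 early anagen barcodes past the depth and mitochondrial limits (median 24528 UMIs, 75718468 in all) and 3734 of 3774 bulb barcodes (median 14286.5 UMIs, 55883067 in all). No barcode was shared between the kept cells of the libraries. All 8 melanocyte markers of the list had UMIs in both groups, with summed levels of 24639 CPM in early anagen and 67431 CPM in the bulb. Fibroblast, endothelial and immune markers summed to between 0.0358 and 11.3 CPM. Of the hair matrix markers *Msx2* was at 0.158 CPM in early anagen and 4.01 CPM in the bulb, and epidermal markers summed to 22.0 and 16.5 CPM. *Krt10* made up most of both sums, at 13.1 and 16.2 CPM. *Krt5* was at 2.89 CPM in early anagen and 0.215 CPM in the bulb, and *Krt14* at 3.01 and 0.0716 CPM. The epidermal markers include *Krt10* and *Krt14*, which the choice of cells limited. The part of these transcripts in the results was not tested.

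The RefSeq windows of 250 bases before a transcription start covered 6 of the 10 genes with 11 windows. They are shown for *Tcf7l2*, and in part for *Lef1*. These are the TCF/LEF genes among the 10 with the most UMIs, which differed in opposite directions between the libraries. Capitals mark matches, on either strand, to the TCF/LEF letters CTTTGA or CTTTGT and to the E-box letters CATGTG or CACGTG, the latter a class that the melanocyte factor MITF is known to bind. The first window ends before the annotated start of *Lef1* on the plus strand and overlaps an exon of the noncoding gene *Gm43352* on the opposite strand, the second lies in an intron of *Lef1*, 45823 bases into the gene, before an alternative start, the third lies just before *Tcf7l2* on the plus strand, and the fourth lies in an intron of *Tcf7l2*, 153501 bases into the gene (build GRCm38.p6).
Lef1, first start, chr3:131110047-131110296: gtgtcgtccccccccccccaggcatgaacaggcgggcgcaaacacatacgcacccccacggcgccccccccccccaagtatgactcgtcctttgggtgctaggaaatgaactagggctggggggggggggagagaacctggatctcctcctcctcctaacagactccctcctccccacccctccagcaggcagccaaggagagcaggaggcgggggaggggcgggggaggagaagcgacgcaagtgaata
Lef1, internal start, chr3:131156044-131156293: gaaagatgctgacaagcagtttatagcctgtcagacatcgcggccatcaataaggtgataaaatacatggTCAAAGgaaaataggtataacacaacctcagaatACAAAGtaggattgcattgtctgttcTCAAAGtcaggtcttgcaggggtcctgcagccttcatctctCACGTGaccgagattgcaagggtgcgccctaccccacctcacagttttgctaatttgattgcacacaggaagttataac
Tcf7l2, first start, chr19:55741560-55741809: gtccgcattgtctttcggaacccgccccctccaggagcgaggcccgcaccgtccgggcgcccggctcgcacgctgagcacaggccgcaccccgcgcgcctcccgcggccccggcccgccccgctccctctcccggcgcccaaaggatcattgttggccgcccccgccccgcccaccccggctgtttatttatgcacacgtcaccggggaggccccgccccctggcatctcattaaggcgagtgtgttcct
Tcf7l2, internal start, chr19:55895071-55895320: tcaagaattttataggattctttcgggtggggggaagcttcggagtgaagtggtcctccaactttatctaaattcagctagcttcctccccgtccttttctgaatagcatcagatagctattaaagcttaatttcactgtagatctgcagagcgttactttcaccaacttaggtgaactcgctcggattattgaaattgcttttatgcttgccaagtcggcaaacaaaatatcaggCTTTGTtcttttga
The internal *Lef1* window shown held 4 matches, namely CTTTGA at 180 and 120 bases, CTTTGT at 146 bases and CACGTG at 79 bases before the start. The *Lef1* windows not shown held none of the letters searched. They begin at 131110073, before the gene, and at 131112541, in an intron 2320 bases into the gene. The internal *Tcf7l2* window held CTTTGT at 14 bases before the start, and the first windows of *Lef1* and *Tcf7l2* held none of the letters searched. Matches were also found in windows of *Fzd1* (CTTTGA and CTTTGT), *Fzd7* (CTTTGT) and *Tcf7l1* (CTTTGT). Over all 32851 windows of this length, CTTTGA was found in 13.8%, CTTTGT in 16.5%, CATGTG in 12.3% and CACGTG in 6.02%, so that a single match is common. Because 3′ UMIs are read at the other end of the transcript, the counts below do not tell which *Lef1* start was used.

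The 3 TCF/LEF genes among the 10 differed between early anagen McSCs and bulb melanocytes in opposite directions, *Lef1* being higher in the bulb and *Tcf7l1* and *Tcf7l2* lower. *Lef1* (chromosome 3, 131110471 to 131224356, plus strand of GRCm38, with *Gm43352* overlapping on the minus strand) had 1357 UMIs or 17.9 CPM (17.0 to 18.9) in early anagen and 4305 UMIs or 77.0 CPM (74.8 to 79.4) in the bulb. The bulb level was 4.30-fold higher, a log2 ratio of 2.10 (2.02 to 2.19). *Tcf7l2*, which encodes TCF4, a factor that activates or represses depending on bound β-catenin (chromosome 19, 55741820 to 55933654, plus strand, with the gene *Ppnr* annotated within it on the same strand), had 1989 UMIs or 26.3 CPM (25.1 to 27.4) in early anagen and 76 UMIs or 1.36 CPM (1.07 to 1.70) in the bulb. That was 19.3-fold lower in the bulb, with a log2 ratio of -4.27 (-4.62 to -3.94). *Tcf7l1*, the repressor TCF3 (chromosome 6, 72626378 to 72789254, minus strand), was low in early anagen at 185 UMIs or 2.44 CPM (2.10 to 2.82), and 3 UMIs remained in the bulb, 0.0537 CPM (0.0111 to 0.157), with a log2 ratio of -5.51 (-7.80 to -3.94). *Tcf7*, the family's other member and no part of the chosen 10, was at 26.6 CPM in early anagen and 13.5 CPM in the bulb.

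**Figure D1:**
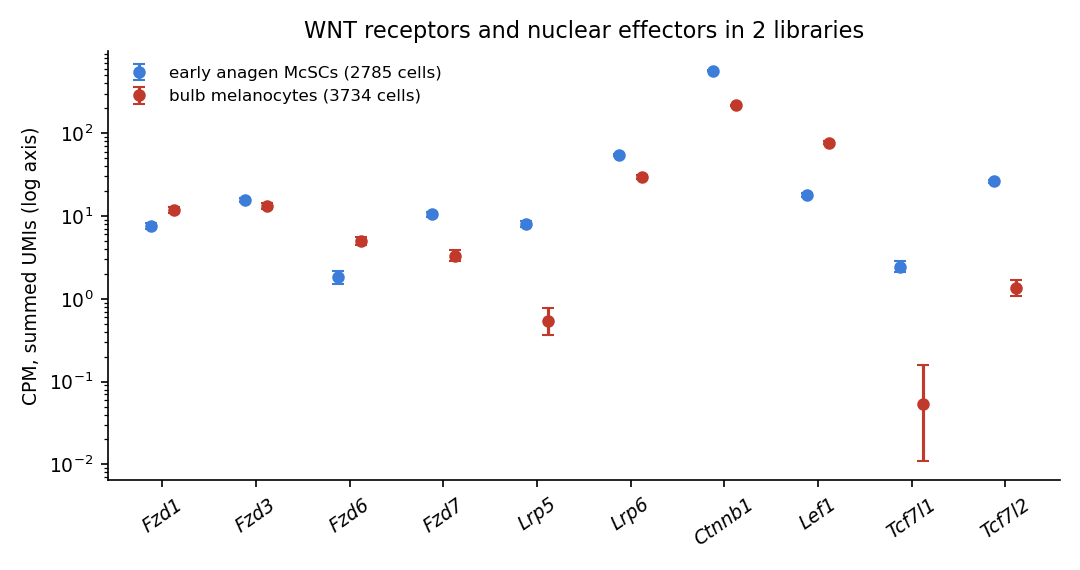
Level of each gene as CPM of summed UMIs on a log axis in early anagen McSCs (blue, 2785 cells) and bulb melanocytes (red, 3734 cells), 1 library each, with exact 95% Poisson intervals. *Lef1* was at 17.9 CPM in early anagen and 77.0 CPM in the bulb, and *Tcf7l2* at 26.3 and 1.36 CPM.

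In early anagen the TCF/LEF family was mixed, and in the bulb it was mostly *Lef1*. The summed level of the 4 genes was 73.2 CPM in early anagen and 91.9 CPM in the bulb, a comparison that depends on scaling. A 3′ UMI stands for 1 captured transcript whatever its length, so shares of the family's UMIs are shares of captured transcripts, with the capture of each gene unknown. In early anagen *Tcf7* held 36.3% (35.04 to 37.6) of 5544 UMIs, *Tcf7l2* 35.9% (34.6 to 37.2), *Lef1* 24.5% (23.3 to 25.6) and *Tcf7l1* 3.34% (2.88 to 3.84). In the bulb *Lef1* held 83.8% (82.8 to 84.8) of 5136 UMIs, *Tcf7* 14.6% (13.7 to 15.6), *Tcf7l2* 1.48% (1.17 to 1.85) and *Tcf7l1* 0.0584% (0.0120 to 0.171). *Tcf7* and *Tcf7l2* did not differ beyond their counting intervals in early anagen, whereas every neighbouring pair in the bulb order did. A share within a family does not depend on how a library was scaled. *Lef1* also led in other cells of the bulb library, barcodes poor in pigment transcripts that are described below. It held 81.5% (61.9 to 93.7) of their 27 TCF/LEF UMIs, an interval that took in its share in bulb melanocytes. In the early anagen barcodes chosen by the same rule, which are keratinocytes of another kind, it held 1.38% (0.167 to 4.89) of 145 UMIs.

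Shares of cells with a UMI gave the same order at matched depth. With each cell thinned to 5000 UMIs, *Lef1* was found in 226 of 2785 early anagen cells, 8.11% (7.13 to 9.19), and in 1142 of 3734 bulb cells, 30.6% (29.1 to 32.1). Without thinning these shares were 30.8% and 63.3%. *Tcf7l2* was found at 5000 UMIs in 11.2% (10.1 to 12.5) of early anagen but 0.884% (0.609 to 1.24) of bulb cells, and in 46.2% and 1.98% without thinning. *Tcf7l1* was found at 5000 UMIs in 1.08% (0.728 to 1.53) of early anagen cells and in 0 of 3734 bulb cells, which allows a share of up to 0.0987%. As cells of another kind in the same droplet runs, barcodes poor in pigment transcripts were taken (under 0.1 of the median share of *Dct*, *Tyrp1*, *Pmel* and *Mlana*), 66 in early anagen at a median of 30521.5 UMIs and 42 in the bulb at 10746 UMIs. They are keratinocyte-rich, with *Krt14* at 8835 CPM in the first and *Tchh* at 9028 CPM in the second. The sets are of unlike kinds. Epidermal markers summed to 25406 CPM in the first and 307 CPM in the second, and hair matrix markers to 5.84 and 2514 CPM. In the kept melanocytes *Tchh* was at 0.119 CPM in early anagen and 40.8 CPM in the bulb, and *Krt14* at 3.01 and 0.0716 CPM. *Lef1* had 2 UMIs in the early anagen set, 0.834 CPM, and was found in 0 of 66 cells at 5000 UMIs, which allows up to 5.44%. In the bulb set *Lef1* was at 48.6 CPM from 22 UMIs, below the 77.0 CPM of bulb melanocytes, while *Msx2* was at 497 CPM against 4.01 CPM in the melanocytes and *Hoxc13* at 285 against 1.45 CPM. At 5000 UMIs *Lef1* was found in 19.0% (8.60 to 34.1) of the bulb set, an interval that took in its share in bulb melanocytes. By this share a level of *Lef1* above these cells was not detectable in the bulb. *Tcf7l2* was found in 1 of the 42 cells of the bulb set at 5000 UMIs, 2.38% (0.0603 to 12.6), an interval that took in its share in bulb melanocytes, so that a level of *Tcf7l2* above these cells was not detectable in the bulb at this depth. Several of the 10 genes were higher in the keratinocyte-rich sets than in the melanocytes. In the early anagen set *Tcf7l2* was at 40.5 CPM and found in 22.7% of cells at 5000 UMIs, *Fzd6* was at 15.9 CPM against 1.81 CPM in melanocytes, *Fzd7* at 19.2 CPM, *Lrp5* at 14.6 CPM and *Tcf7l1* at 4.17 CPM. In the bulb set *Fzd7* and *Tcf7l2* had 1 UMI each, 2.21 CPM. *Lrp5* and *Tcf7l1* had 0 there, which allows up to 6.63 CPM. *Fzd7*, *Tcf7l2* and *Lrp5* were thus lower in the bulb set than in the early anagen set, as in melanocytes, though the sets hold unlike keratinocytes. *Ctnnb1* was not, at 177 CPM in the early anagen set and 186 CPM in the bulb set. In the bulb set *Fzd6* was at 22.1 CPM against 4.99 CPM in melanocytes (4.76% against 2.33% of cells at 5000 UMIs) and *Fzd3* at 37.6 against 13.2 CPM (16.7% against 6.11%). Keratinocytes are not cells that should lack these genes, and the part of their free RNA in the melanocyte levels was not tested. *Krt5*, which was not used to choose cells, was at 3502 CPM in the early anagen keratinocyte-rich set and 2.89 CPM in early anagen melanocytes.

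**Figure D2:**
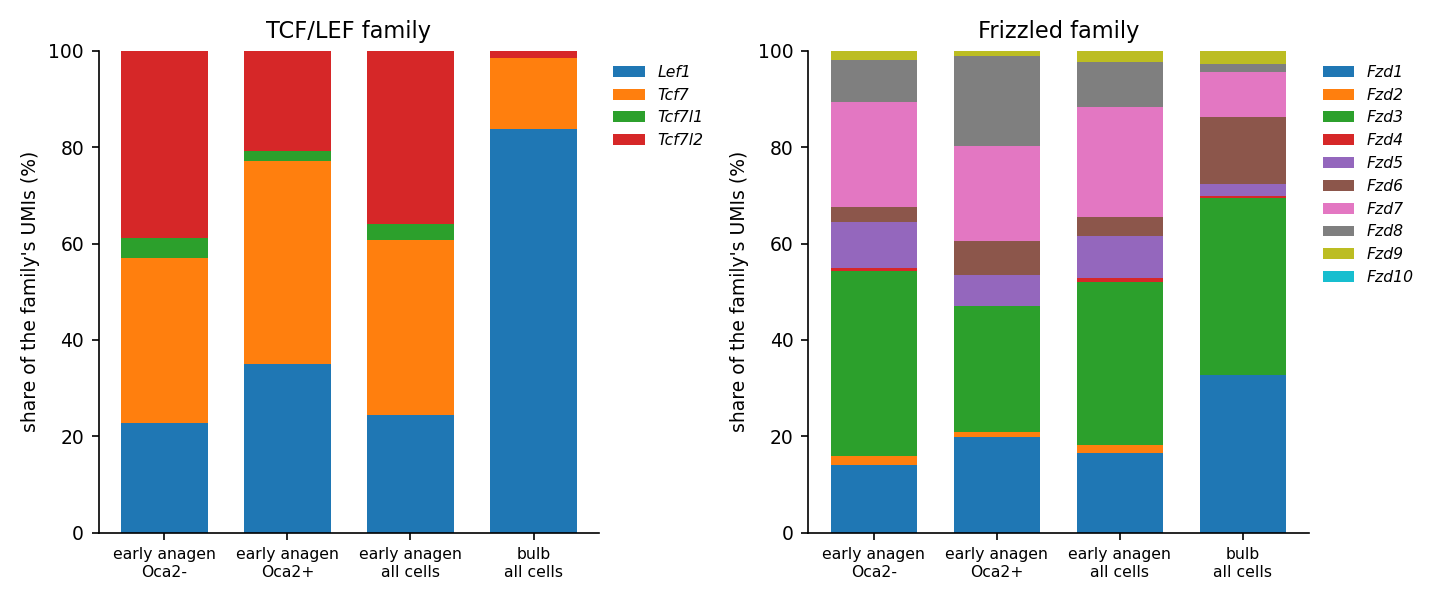
Share of the family's UMIs (%) held by each TCF/LEF gene (left) and each frizzled gene (right) in early anagen *Oca2*- cells, early anagen *Oca2*+ cells, all early anagen cells and all bulb cells. *Lef1* held 22.7% of TCF/LEF UMIs in *Oca2*- cells, 34.9% in *Oca2*+ cells and 83.8% in the bulb.

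The frizzled genes, which encode the receptors that bind WNT ligands, differed in both directions. *Fzd7* (chromosome 1, 59482424 to 59486955, plus strand) was at 10.5 CPM (9.78 to 11.3) in early anagen and 3.33 CPM (2.87 to 3.84) in the bulb, 3.15-fold lower. *Fzd6*, a receptor also known for planar cell polarity in skin and hair (chromosome 15, 39006034 to 39038188, plus strand), was low in both libraries, at 1.81 CPM (1.52 to 2.14) in early anagen and 4.99 CPM (4.42 to 5.61) in the bulb, 2.76-fold higher, with both levels below those of the keratinocyte-rich barcodes. *Fzd1* (chromosome 5, 4753839 to 4758035, minus strand) was at 7.62 and 11.7 CPM, a log2 ratio of 0.62 (0.46 to 0.79), which did not reach 2-fold. *Fzd3*, another receptor of the polarity branch (chromosome 14, 65192449 to 65262463, minus strand), was at 15.7 and 13.2 CPM, with a log2 ratio of -0.25 (-0.38 to -0.12) that became 0.06 with trimmed mean of M-values (TMM) scaling.

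Taken as a family of 10 frizzled genes, their summed level was 46.2 CPM in early anagen and 35.9 CPM in the bulb. *Fzd3* held the largest share in both, 33.9% (32.3 to 35.5) of 3500 UMIs and 36.7% (34.6 to 38.8) of 2007 UMIs. *Fzd7* was next in early anagen with 22.7% (21.3 to 24.1) and held 9.27% (8.03 to 10.6) in the bulb. *Fzd1* went from 16.5% (15.3 to 17.8) to 32.7% (30.6 to 34.8), and *Fzd6* from 3.91% (3.30 to 4.61) to 13.9% (12.4 to 15.5). *Fzd8*, which is not one of the chosen 10, held 9.34% in early anagen and 1.59% in the bulb. In the bulb order *Fzd3* and *Fzd1* lay near each other with intervals that overlapped slightly.

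The co-receptors were both lower in the bulb, *Lrp5* far more than *Lrp6*. *Lrp5* (chromosome 19, 3584828 to 3686564, minus strand) had 606 UMIs or 8.003 CPM (7.38 to 8.67) in early anagen and 30 UMIs or 0.537 CPM (0.362 to 0.766) in the bulb, 14.9-fold lower. *Lrp6* (chromosome 6, 134446476 to 134566965, minus strand) was the more abundant of the pair by UMIs, at 54.5 CPM (52.9 to 56.2) and 29.5 CPM (28.1 to 30.9), a log2 ratio of -0.89 (-0.97 to -0.80). *Lrp5* accounted for 12.8% (11.9 to 13.8) of the pair's 4734 UMIs in early anagen and 1.79% (1.21 to 2.54) of 1678 in the bulb. At 5000 UMIs *Lrp5* was found in 3.91% of early anagen against 0.321% of bulb cells, and *Lrp6* in 24.4% and 14.1%.

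β-catenin was the most abundant of the 10 and was lower in the bulb as well. *Ctnnb1* (chromosome 9, 120929216 to 120960507, plus strand) had 43057 UMIs or 569 CPM (563 to 574) in early anagen and 12088 UMIs or 216 CPM (212 to 220) in the bulb, 2.63-fold lower, a log2 ratio of -1.39 (-1.42 to -1.37). At 5000 UMIs 90.9% of early anagen but 65.4% of bulb cells had a *Ctnnb1* UMI. The signal of this pathway is carried by the amount and place of the β-catenin protein, which these counts do not measure.

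Over the 10 genes, 5 were past 2-fold lower in the bulb (*Fzd7*, *Lrp5*, *Ctnnb1*, *Tcf7l1* and *Tcf7l2*), where 33.2% of the 11700 genes with at least 100 UMIs in both groups together were. Another 2 were past 2-fold higher (*Fzd6* and *Lef1*), where 14.7% of all genes were. The median log2 ratio of the 10 was -1.14, against -0.34 over all 11700 genes. TMM scaling moved the median of all genes to -0.03 and the shares past 2-fold to 27.1% lower and 21.2% higher, and left the counts of 5 and 2 as they were. Relative to the median of all genes, *Lef1* stood at 2.44 and *Ctnnb1* at -1.05 on the log2 scale. As shares, 5 and 2 of 10 genes lie near these backgrounds. The sizes were uneven, with *Tcf7l1*, *Tcf7l2* and *Lrp5* each 14.9-fold lower or more.

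The same genes were then compared within the early anagen library, between cells with and without a UMI of *Oca2*, which encodes a melanosomal membrane protein needed for pigment. Each cell was thinned to 10000 UMIs first, which gave 288 *Oca2*+ and 2497 *Oca2*- cells with medians of 27245 and 24132 UMIs before thinning. With all their UMIs 454 of the cells had an *Oca2* UMI, so some *Oca2*- cells were negative only after thinning. *Lef1* was at 16.3 CPM (14.7 to 17.9) in *Oca2*- against 30.2 CPM (24.2 to 37.3) in *Oca2*+ cells, a log2 ratio of 0.89 (0.54 to 1.23). *Tcf7l2* went the other way, at 27.8 CPM (25.8 to 30.0) and 18.1 CPM (13.5 to 23.7), with a log2 ratio of -0.62 (-1.06 to -0.22). These were the directions of the difference between the libraries, at a smaller size. Among the 10 genes *Fzd7* (0.24 and -1.66), and outside them *Tcf7* (0.57 and -0.98) and *Fzd8* (1.47 and -2.91), had opposite signs in this split and between the libraries. *Lef1* thereby held 22.7% (20.8 to 24.7) of TCF/LEF UMIs in *Oca2*- and 34.9% (29.0 to 41.2) in *Oca2*+ cells, and *Tcf7l2* 38.9% (36.6 to 41.2) and 20.9% (16.0 to 26.5). Summed epidermal markers were at 25.4 CPM in *Oca2*- against 27.4 CPM in *Oca2*+ cells and hair matrix markers at 0.400 and 0.694 CPM. The epidermal sums include *Krt10* and *Krt14*, which the choice of cells limited. *Krt5*, which was not used to choose cells, was at 3.88 CPM (97 UMIs) in *Oca2*- and 2.08 CPM (6 UMIs) in *Oca2*+ cells.

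*Ctnnb1* and *Lrp6* were nearly level between these cells. *Fzd3* was at 17.6 CPM in *Oca2*- against 15.6 CPM in *Oca2*+ cells. Its log2 interval, -0.65 to 0.27, took in equality and also the ratio between the libraries. *Ctnnb1* was at 580 CPM (571 to 590) in *Oca2*- against 565 CPM (538 to 593) in *Oca2*+ cells, a log2 ratio of -0.04 (-0.11 to 0.04), an interval that left out the ratio between the libraries. *Lrp6* was at 56.9 CPM in both, with a log2 interval of -0.24 to 0.23. The interval of *Lrp5*, -0.97 to 0.44, also left out the difference between the libraries, while that of *Tcf7l1*, -2.44 to 0.52, rested on 5 UMIs in *Oca2*+ cells. *Fzd7* was at 10.0 CPM in *Oca2*- against 11.8 CPM in *Oca2*+ cells. Its interval, -0.32 to 0.76, took in equality and left out the ratio between the libraries. *Fzd1* was at 6.49 CPM in *Oca2*- against 11.8 CPM in *Oca2*+ cells, a log2 ratio of 0.86 (0.29 to 1.40). Only *Fzd6* was past 2-fold, at a log2 ratio of 1.57 (0.49 to 2.55), from 12 UMIs in 11 *Oca2*+ cells, all of them with exactly 1 *Oca2* UMI, and it was at 0.29 when cells with a *Mki67* or *Top2a* UMI were left out. That is 1 of 10 genes past 2-fold higher and 0 past 2-fold lower, where 3.11% and 5.68% of 11927 genes were. With another random seed for thinning *Lef1* was past 2-fold too, at 1.05.

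**Figure D3:**
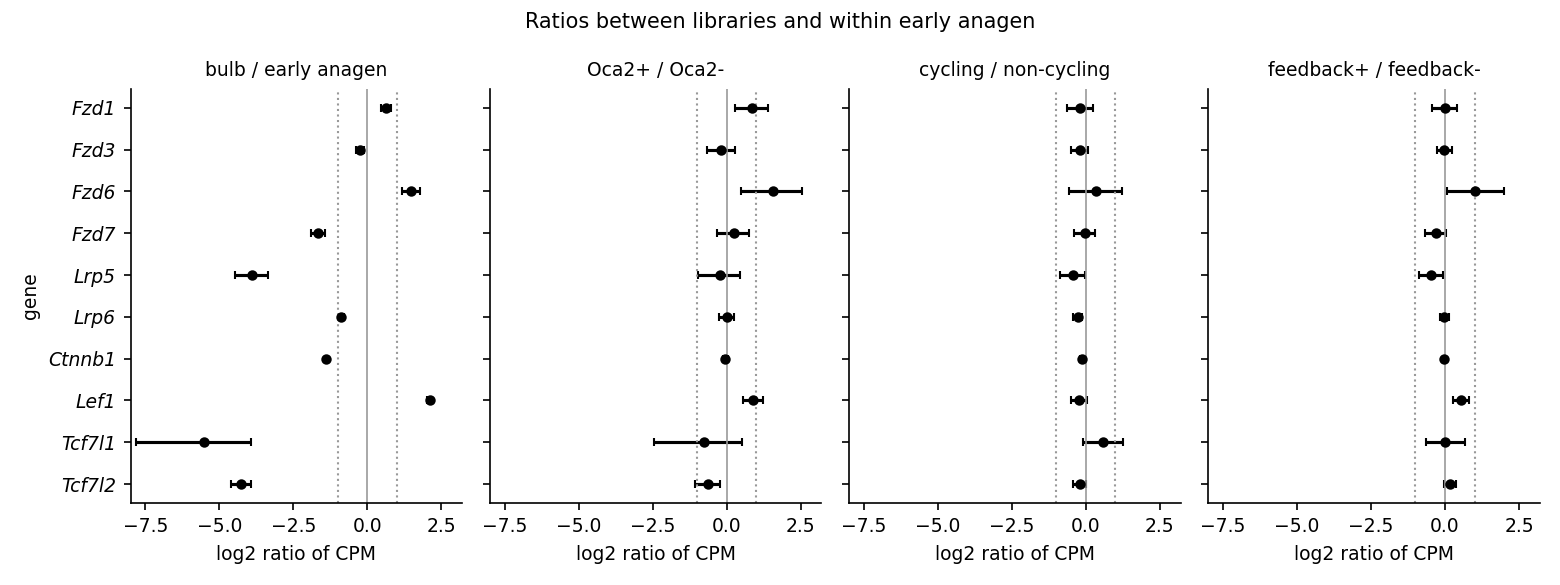
Log2 ratio of CPM for each gene, with exact 95% intervals, between bulb and early anagen libraries and, within early anagen at 10000 UMIs per cell, between *Oca2*+ and *Oca2*-, cycling and non-cycling, and WNT feedback-positive and -negative cells. Dotted lines mark 2-fold. *Lef1* was at 2.10, 0.89, -0.23 and 0.54 in the 4 panels from left to right.

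With more *Oca2* UMIs per cell *Lef1* was higher at each step. It was at 16.3 CPM (14.7 to 17.9) in the 2497 cells with none, 25.0 CPM (17.2 to 35.1) in 132 cells with 1, 27.4 CPM (18.3 to 39.3) in 106 cells with 2 to 3 and 50 CPM (32.4 to 73.8) in 50 cells with 4 or more, against 78.5 CPM (75.5 to 81.6) in 3288 bulb cells at the same depth. The intervals of neighbouring steps overlapped except between the last step and the bulb, and that of the first step stood apart from that of the last. In the cells with 4 or more *Oca2* UMIs, which were chosen for high *Oca2* counts as the bulb cells were not, *Tcf7l2* was at 24.0 CPM (12.4 to 41.9) against 1.46 CPM in the bulb, and *Ctnnb1* at 532 CPM (470 to 600) against 215 CPM. *Lrp5* was at 8 CPM (2.18 to 20.5) there and 0.517 CPM in the bulb. The intervals of *Tcf7l2*, *Lrp5* and *Ctnnb1* in these cells took in their levels in cells without *Oca2* UMIs. *Lef1* made up 42.4% (29.6 to 55.9) of the 59 TCF/LEF UMIs in these 50 cells. Among frizzled UMIs *Fzd8* held 8.72% (7.15 to 10.5) in *Oca2*- and 18.6% (13.1 to 25.2) in *Oca2*+ cells, whereas its share in the bulb was 1.59%. *Fzd3* held 38.4% (35.5 to 41.2) in *Oca2*- and 26.2% (19.8 to 33.4) in *Oca2*+ cells, and 36.7% in the bulb.

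**Figure D4:**
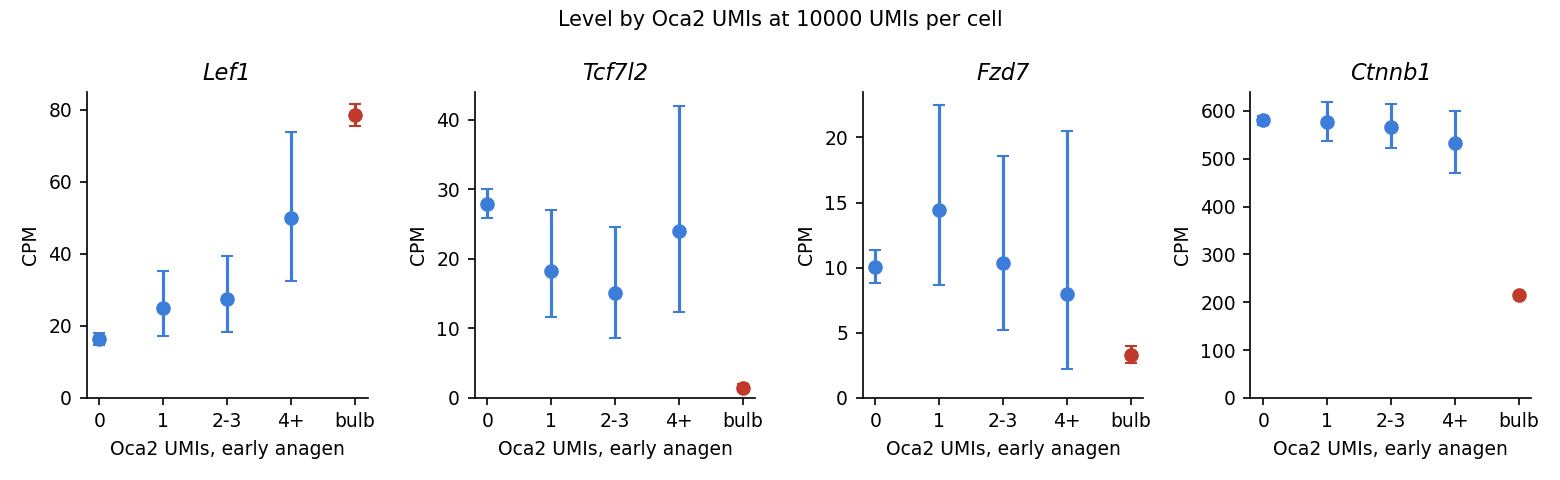
CPM of *Lef1*, *Tcf7l2*, *Fzd7* and *Ctnnb1* with exact 95% Poisson intervals in early anagen cells (blue) by their number of *Oca2* UMIs and in bulb melanocytes (red), all thinned to 10000 UMIs per cell. *Lef1* was at 16.3, 25.0, 27.4 and 50 CPM over the 4 early anagen groups and 78.5 CPM in the bulb, and *Ctnnb1* stayed between 532 and 580 CPM before 215 CPM in the bulb.

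*Lef1* and the other TCF/LEF transcripts were not divided between separate cells. Among early anagen cells at 10000 UMIs, *Tcf7l2* was found in 82 of 413 cells with a *Lef1* UMI, 19.9% (16.1 to 24.0), and in 542 of 2372 without, 22.8% (21.2 to 24.6). *Tcf7* was found in 26.2% (22.0 to 30.7) and 21.6% (19.9 to 23.3). *Oca2* was found in 15.3% (11.9 to 19.1) of cells with *Lef1* and 9.49% (8.34 to 10.7) of cells without. *Nkd1*, an inhibitor of the pathway that WNT signals induce, was found in 33.7% (29.1 to 38.4) and 22.3% (20.6 to 24.0), and *Axin2*, another such inhibitor, in 34.9% (30.3 to 39.7) and 32.2% (30.3 to 34.1). In the bulb nearly every cell had *Nkd1*, 97.1% with and 95.7% without *Lef1*. Joint detection was low at 5000 UMIs, a lower depth than that of the counts above. There 1.80% of early anagen and 1.04% of bulb cells had a UMI of any frizzled, of *Lrp5* or *Lrp6*, and of any TCF/LEF gene at once. The part of capture and of low expression in this was not tested.

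Early anagen cells were also split by the proliferation genes *Mki67* and *Top2a*. Before thinning the 1026 cycling cells (a UMI of either) had a median of 34540 UMIs and the 1759 others 20884. At 10000 UMIs 0 of the 10 genes were past 2-fold in either direction, where 5.11% of 11927 genes were higher and 2.81% lower. The median log2 ratio of the 10 was -0.20, against -0.05 over all genes. *Ctnnb1* was at 543 CPM in cycling against 599.5 CPM in other cells, a log2 ratio of -0.14 (-0.19 to -0.10), and *Lrp6* at 50.5 and 60.7 CPM. *Lef1* was at 16.0 and 18.7 CPM with an interval that took in equality. *Oca2*+ cells were less often in the cycling set, 24.0% (19.1 to 29.3) against 38.3% (36.4 to 40.3) of *Oca2*- cells, and the *Lef1* ratio between *Oca2* groups was 0.82 without cycling cells. In the bulb 72 of 3288 cells at this depth had a *Mki67* or *Top2a* UMI, and *Lef1* was at 66.7 CPM (49.2 to 88.4) in them and 78.8 CPM in the rest.

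A last split used *Axin2*, *Nkd1* and *Sp5*, which WNT signals induce and which were not used to choose the 10 genes. In 1438 cells with a UMI of any of them against 1347 with none, *Lef1*, itself a known target of the pathway, was at 20.9 CPM (18.6 to 23.4) and 14.3 CPM (12.4 to 16.5), a log2 ratio of 0.54 (0.28 to 0.81). *Tcf7l2* was at 28.4 and 25.2 CPM, with an interval of -0.04 to 0.39, and *Ctnnb1* at 573 and 585 CPM. *Lrp5* was somewhat lower in feedback-positive cells, at 6.75 against 9.35 CPM, and *Fzd6* was at 2.23 against 1.11 CPM from 47 UMIs in all. None of the 10 passed 2-fold, where 0.889% of all genes did so upward and 0.805% downward. *Oca2*+ cells were more often feedback-positive, 69.1% (63.4 to 74.4) against 49.6% (47.6 to 51.6), so that the 2 splits share cells.

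Around these genes stood 67 others of the pathway, grouped by role, of which 38 had at least 100 UMIs over both libraries. Past 2-fold, 3 of the 38 were higher in the bulb and 13 lower, with a median log2 ratio of -0.55, where 14.7% of all genes were higher and 33.2% lower, so the lower count is near that background. The counts by role below rest on few genes each and are read against the same shares. All 3 higher genes were ligands, and only 3 of the 19 ligands had at least 100 UMIs. *Wnt2* and *Wnt9a* reached that minimum only through the bulb, where they were high, so the minimum favoured this direction. Under the minimum *Wnt3* (0 UMIs in early anagen and 50 in the bulb) was past 2-fold higher in the bulb. *Wnt5a* (19 and 2), *Wnt6* (24 and 3) and *Wnt16* (11 and 0) were past 2-fold lower. *Wnt4* was at 8.73 CPM (661 UMIs) in early anagen and 69.2 CPM (3867 UMIs) in the bulb, and at 157 and 115 CPM in the keratinocyte-rich barcodes of these libraries (40.5% of the bulb set against 28.0% of bulb melanocytes at 5000 UMIs). *Wnt2* had 0 UMIs in early anagen and 1363 in the bulb, at least 616-fold higher against a floor of 3 UMIs over the group, and *Wnt9a* had 22 and 98 UMIs. *Wls*, which carries WNT proteins to the cell surface, was at 117 and 215 CPM and *Porcn*, which acylates them, at 3.35 and 2.49 CPM.

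Of the list's genes for receptors, signal transfer and nuclear partners with at least 100 UMIs, none was past 2-fold higher in the bulb. Of the feedback genes, which were not in this list, *Nkd1* was at 34.1 CPM in early anagen and 486 CPM in the bulb, *Sp5* at 10.43 and 21.8 CPM, and *Axin2* at 45.1 and 21.4 CPM. Among the other frizzleds 2 of 3 genes with at least 100 UMIs were lower, *Fzd8* with a log2 ratio of -2.91 and *Fzd5* with -2.17. Below that minimum, in early anagen and the bulb, *Fzd2* had 61 and 2 UMIs, *Fzd4* 23 and 8 and *Fzd10* 2 and 2. Of 6 other receptors and co-receptors with at least 100 UMIs, the lower ones were *Ryk* and *Lrp4*. *Ryk*, a WNT-binding receptor without active kinase, was at 119 and 30.3 CPM, and *Lrp4* had a log2 ratio of -2.24. *Znrf3*, which removes frizzleds from the surface, had a log2 ratio of 0.26. Of 9 genes of signal transfer and the destruction complex 4 were lower, *Axin1* with -2.81, *Dvl1* with -2.36, *Apc* with -1.53 and *Gsk3b* at 250 and 125 CPM. *Csnk1a1* was the most abundant at 268 and 164 CPM, and *Dvl2* was at 0.82. Of 15 nuclear partners 5 were lower, the co-repressors *Tle4* with -3.48 and *Tle2* with -3.26, *Bcl9l* with -2.59, *Hipk2* with -2.26 and the abundant *Tle5* at 357 and 127 CPM, while *Tle1* was at 0.93. In early anagen and the bulb *Fzd5* had 310 and 51 UMIs, *Fzd8* 327 and 32, *Lrp4* 160 and 25 and *Tle2* 234 and 18. They reached the minimum of 100 UMIs only through early anagen, where they were high, so the minimum favoured the lower direction. In the *Oca2* split 37 of the 67 genes had at least 20 UMIs, and 2 were past 2-fold higher (*Wnt4* and *Fzd8*) and 2 lower (*Bcl9l* and *Jup*), where 3.11% and 5.68% of all genes were. *Wnt4* was at 5.73 CPM in *Oca2*- against 32.6 CPM in *Oca2*+ cells.

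**Figure D5:**
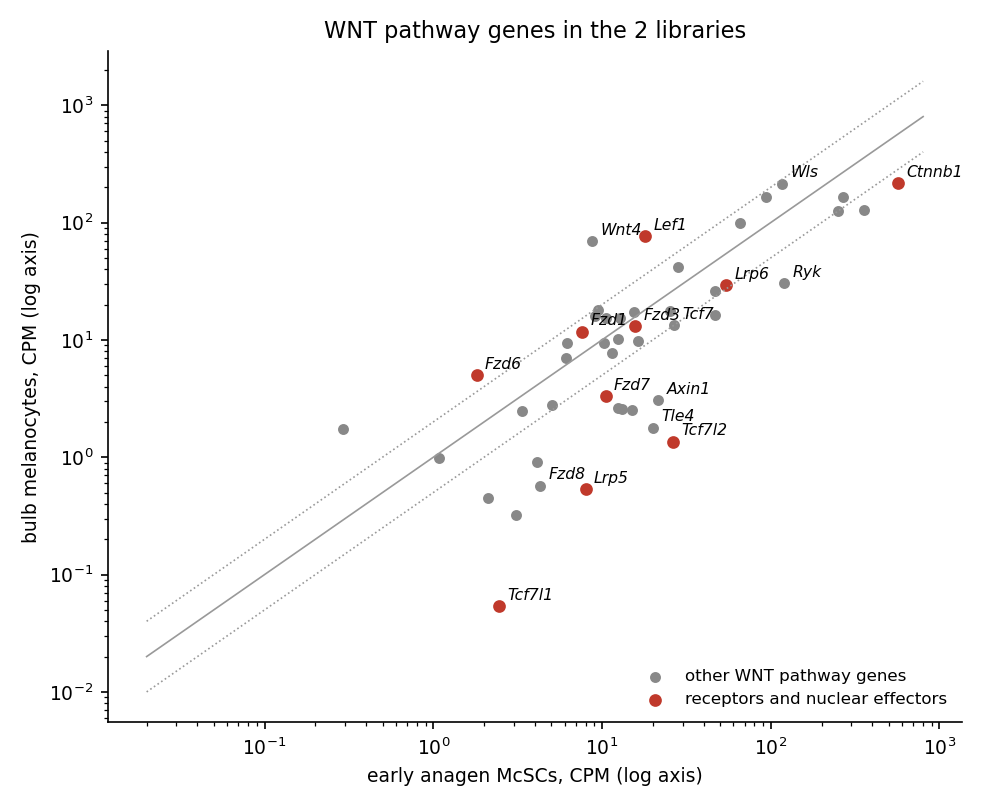
CPM in bulb melanocytes against CPM in early anagen McSCs, both on log axes, for the 10 receptors and nuclear effectors (red) and 37 other WNT pathway genes with at least 100 UMIs (grey). *Wnt2* is left out because it had 0 UMIs in early anagen. The solid line marks equality and dotted lines 2-fold, with *Tcf7l1*, *Tcf7l2* and *Lrp5* far below and *Lef1* and *Wnt4* above.

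Genes with the most similar profile were sought for the members past 2-fold, by the Euclidean distance of centred log2(CPM + 1) over the 4 *Oca2* groups of early anagen and the bulb, among 6680 genes of at least 20 CPM in 1 of these 5 groups. Nearest to *Lef1* were *Pter* (distance 0.21), *B4galt6* (0.22) and *Cntfr* (0.27). *B4galt6*, which makes lactosylceramide, was at 17.3 CPM in cells without *Oca2* UMIs, 48.0 CPM in those with 4 or more and 70.3 CPM in the bulb. Nearest to *Tcf7l2* were *Mapt* (0.22), *Abcg2* (0.27) and *E330034G19Rik* (0.38). *Mapt*, which encodes the microtubule protein tau, was at 20.5 CPM in cells without *Oca2* UMIs after thinning and 0.943 CPM in the bulb. *Lrp5* was nearest to *Iqgap2*, *Cavin2* and *C1galt1*, *Fzd7* to *Map4k3*, *Nhsl1* and *Tmod1*, and *Ctnnb1* to *Ola1*, *Trappc8* and *Fau*. The nearest genes to *Tcf7l1* (*Kif13b*, *Bdp1* and *Amotl2*) and to *Fzd6* (*Tmub1*, *Dbp* and *Cept1*, at distances of 1.88 or more) rested on few UMIs. In cells with 1, 2 to 3 and 4 or more *Oca2* UMIs, *Lrp5* had 10, 6 and 4 UMIs. *Fzd7* had 19, 11 and 4 and *Tcf7l2* 24, 16 and 12, so their nearest genes rested on few UMIs as well. Only 5 groups define these profiles, and the 4 from early anagen share a library.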

How the data were processed

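Each library was deposited as a gene by barcode matrix of UMI counts, which the authors made with Cell Ranger 6.0.1 and the mm10 reference. These raw counts were used as deposited. Cells were chosen by the limits given above, UMIs were summed over them and levels were expressed as CPM of all UMIs in those cells. Intervals are exact Poisson for CPM, conditional binomial for ratios and Clopper-Pearson for shares, all at 95%. A count of 0 was set to 3 UMIs to give a bound. Cells were thinned without replacement to 10000 or 5000 UMIs wherever they were split or detection was compared. No doublet caller was run, and the scripts were tested on simulated data. A gene was called past 2-fold by its point ratio.

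The 10 genes, the pathway list and the marker list were chosen with earlier results of these data known. Genes named beside the 10 were, in each role of the pathway list, the most abundant and the one with the largest ratio in each direction, the 3 nearest in profile to each member past 2-fold, and the genes that split cells. *Wnt3*, *Wnt5a*, *Wnt6*, *Wnt9a*, *Wnt16*, *Fzd2*, *Fzd4*, *Fzd5*, *Fzd10*, *Dvl1*, *Apc*, *Gsk3b*, *Tle2*, *Bcl9l*, *Hipk2* and *Jup* complete short lists and were named after their values were seen. The rule for pigment-poor barcodes was set after seeing the data, because the keratin-rich rule meant for this (at least 20 *Krt10* and *Krt14* UMIs) found 80 barcodes in early anagen and 1 in the bulb. *Aes* and *Krt85* of the lists had no row under those names. Annotation was GENCODE vM21 on GRCm38. Python 3.11.15, scipy 1.17.1 and edgeR 4.0.16 in R 4.3.3 (TMM factors as an alternative scaling) were used. Part of the marker list is not reported here.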

Additional observations from a re-analysis of the deposited data

How the results depend on the processing

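The median log2 ratio of the 10 genes between bulb and early anagen, -1.14, was -0.83 with edgeR's TMM factors, -1.30 when the total excluded pigmentation, ribosomal protein and mitochondrial genes, and -1.25 in cells without a *Mki67* or *Top2a* UMI. The count of genes past 2-fold higher was 1 instead of 2 both when cells were thinned to 5000 UMIs and when only cells with an *Oca2* UMI were compared in both libraries, since *Fzd6* was then at 0.83 and 0.50. The count past 2-fold lower stayed between 5 and 6 over 12 alternatives, and *Lef1* stayed between 1.40 and 2.42. Over 13 alternatives the shares of all genes past 2-fold ran from 12.1% to 21.2% higher and from 27.1% to 36.8% lower. In early anagen the *Lef1* share of TCF/LEF UMIs was 22.8% with *Krt10* and *Krt14* at 0 UMIs. In early anagen cells with an *Oca2* UMI, an alternative added after seeing the data, the shares were 34.4% for *Lef1*, 24.5% for *Tcf7l2*, 21.4% for *Fzd1*, 28.6% for *Fzd3* and 6.29% for *Fzd6*. In the *Oca2* split the count past 2-fold higher was 2 with another seed and 0 without cycling cells, and the share of all genes past 2-fold lower was 3.69% with all UMIs. Over 9 alternatives the share higher ran from 2.70% to 9.39%, the latter when genes needed only 1 UMI in each group. In the feedback split the count past 2-fold higher was 1 with at least 2 UMIs (*Fzd6*, 1.55). At that setting 1.23% of all genes were higher and 1.54% lower. With all UMIs 2.71% were higher and 1.55% lower. The cause of these shifts was not tested. No paired analysis was possible because each condition had 1 library. Few UMIs limit *Tcf7l1* (3 in the bulb), *Lrp5* (30) and *Tcf7l2* (76), and *Fzd6* in the splits, and cells could not be assigned to animals.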
